A study of Mus musculus with 5 samples.

Results

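The 38 genes described here are interferon-stimulated genes, taken by name from the deposited expression table, which holds 24319 genes once 27 rows with spreadsheet dates for names are set aside. All 38 were in the table, and all 38 were among the 11481 genes that averaged 1 FPKM or more (fragments of a gene divided by transcript length and library size) that entered the test between genotypes. The data are bulk RNA-seq of 5 libraries of mouse mammary luminal cells, the epithelial cells that line the milk ducts. Replicates 1, 2 and 3 are labelled wild type, replicates 4 and 5 are labelled *Brca1* knockout, and the strain of all 5 is given as mixed. In the study's mice, *Brca1* fl/fl alleles are deleted by Cre under the MMTV promoter, which acts in mammary epithelium. The labels do not say whether the wild type mice carry Cre, and the study describes its luminal cells as BRCA1-deficient without separating these labels. Luminal cells were sorted as viable CD24 high, CD29 low cells after lineage-positive cells had been depleted, although the extraction label describes frozen tumors. Virgin and pregnant mice were used in the study, and the stage behind each bulk library is not given in the sources used here. Nothing in the labels ties each library to an animal of its own, so p-values measure only the spread between these libraries.

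Interferons are secreted proteins that switch on a shared defence programme in cells that carry their receptors. Type I and type III interferons act through a complex that holds *Stat2* and *Irf9* and binds the interferon-stimulated response element (ISRE), while the response to interferon gamma runs through the gamma-activated site (GAS). The products include GTPases that attack the vacuoles of intracellular pathogens, sensors of foreign RNA and DNA, proteins that block viral replication, chemokines that attract T cells, and feedback proteins that end the signal.

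The promoters of 4 members show how these elements are laid out, with 2 GTPase genes first, then the ubiquitin-like modifier *Isg15* and the antiviral effector *Ifit1*. Each line is the stretch just upstream of the RefSeq start in GRCm38.p6 (mm10), written 5′ to 3′ on the strand of the gene, and capitals mark matches to the ISRE core GAAANNGAAA or the GAS core TTCNNNGAA on either strand. The windows are chr11:58199436-58199555 on the plus strand for *Igtp*, chr11:58214857-58214976 on the plus strand for *Irgm2*, chr4:156200819-156200938 on the minus strand for *Isg15* and chr19:34640769-34640888 on the plus strand for *Ifit1*.
Igtp: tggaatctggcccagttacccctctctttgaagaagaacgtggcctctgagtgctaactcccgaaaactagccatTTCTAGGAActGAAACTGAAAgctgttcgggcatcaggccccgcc
Irgm2: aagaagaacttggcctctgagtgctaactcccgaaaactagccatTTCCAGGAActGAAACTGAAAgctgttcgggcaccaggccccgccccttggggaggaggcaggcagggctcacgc
Isg15: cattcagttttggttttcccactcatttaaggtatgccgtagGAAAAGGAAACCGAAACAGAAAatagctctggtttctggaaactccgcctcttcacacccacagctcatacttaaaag
Ifit1: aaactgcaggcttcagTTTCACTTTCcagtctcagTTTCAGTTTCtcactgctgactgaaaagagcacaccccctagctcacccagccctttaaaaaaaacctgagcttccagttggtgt

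In both *Igtp* and *Irgm2* the GAS began 11 bases before the ISRE. *Isg15* held 3 ISRE matches that overlap each other, *Ifit1* held 2 separate ones on the opposite strand, and neither held a GAS in its whole promoter window. RefSeq promoters, which run from upstream of each start to 50 bases after it, were matched for 29 of the 38 members. The entries not found were *Zbp1*, *Iigp1*, *Usp18*, *Oas2*, *Rtp4*, *Gbp6*, *Parp9*, *Parp14* and *Mx1*. An ISRE core was present in 18 of the 29 (62.1%), against 3.99% of 27025 genes with a promoter, and a GAS core in 8 (27.6%), against 9.55%. Among the GTPases, 6 of 7 had an ISRE and 3 of these, *Igtp*, *Irgm2* and *Gbp7*, had both elements. Of the 4 transcription factors 1 had an ISRE (*Stat2*) and 1 had a GAS (*Irf1*). A match describes letters in the window and does not show that a factor binds there.

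The luminal identity of the libraries was checked with marker genes before the members were compared. *Krt8*, a luminal keratin, lay between 2240 and 3653 FPKM in all 5 libraries. Replicate 3 stood apart in the summed level of 3 lists. That of 4 mature luminal markers was 218 FPKM against 9.45 to 14.5 FPKM in the other 4 libraries, and that of 5 proliferation markers 2.79 FPKM against 47.5 to 102 FPKM. The sum of 5 basal markers was 7.20 FPKM against 39.3 to 129 FPKM, with *Krt14* its largest part in every library. *Krt14*, *Acta2* and *Oxtr* were lowest in replicate 3. *Krt5* and *Myh11* were instead lowest in replicate 5, at 0.232 and 0.318 FPKM, against 0.795 and 0.353 FPKM in replicate 3. *Brca1* was at 1.30, 1.32 and 0.234 FPKM in the wild type libraries and at 1.20 and 1.34 FPKM in the knockout libraries, so the targeted gene did not check the labels (limma, log2 difference 0.27, standard error 0.38, adjusted p = 0.94), and a gene-level FPKM cannot show the loss of single exons. Wild type and knockout therefore mean libraries labelled so throughout. The table gives no read totals. From the spacing of low FPKM values, depth was estimated at 6190000, 12900000, 30400000, 6350000 and 21300000 fragments in replicates 1 to 5, which makes low values least certain in replicates 1 and 4.

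The members were highest in knockout replicate 5, next in wild type replicate 1, and low in the other 3 libraries, 1 of which carries the knockout label. Their median level, in log2(FPKM + 1), was 3.50, 2.50 and 2.81 in wild type replicates 1, 2 and 3 and 2.30 and 4.04 in knockout replicates 4 and 5, a mean of 3.03 ± 0.73 (SD, n = 5). The libraries at the top and at the bottom of this order, replicates 5 and 4, thus share a label. Replicate 5 held the highest value for 30 of the 38 members, where 21.2% of all genes tested were highest there. Replicate 1 was highest for 7 members, *Stat2*, *Ddx58*, *Ifit1*, *Ifit3*, *Rsad2*, *Mx1* and *Isg15*, where 24.2% of all genes were highest in it. The remaining member, *Trim30a*, was highest in replicate 3. In bulk RNA, more cells that express a gene and more RNA per cell cannot be told apart.

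**Figure D1:**
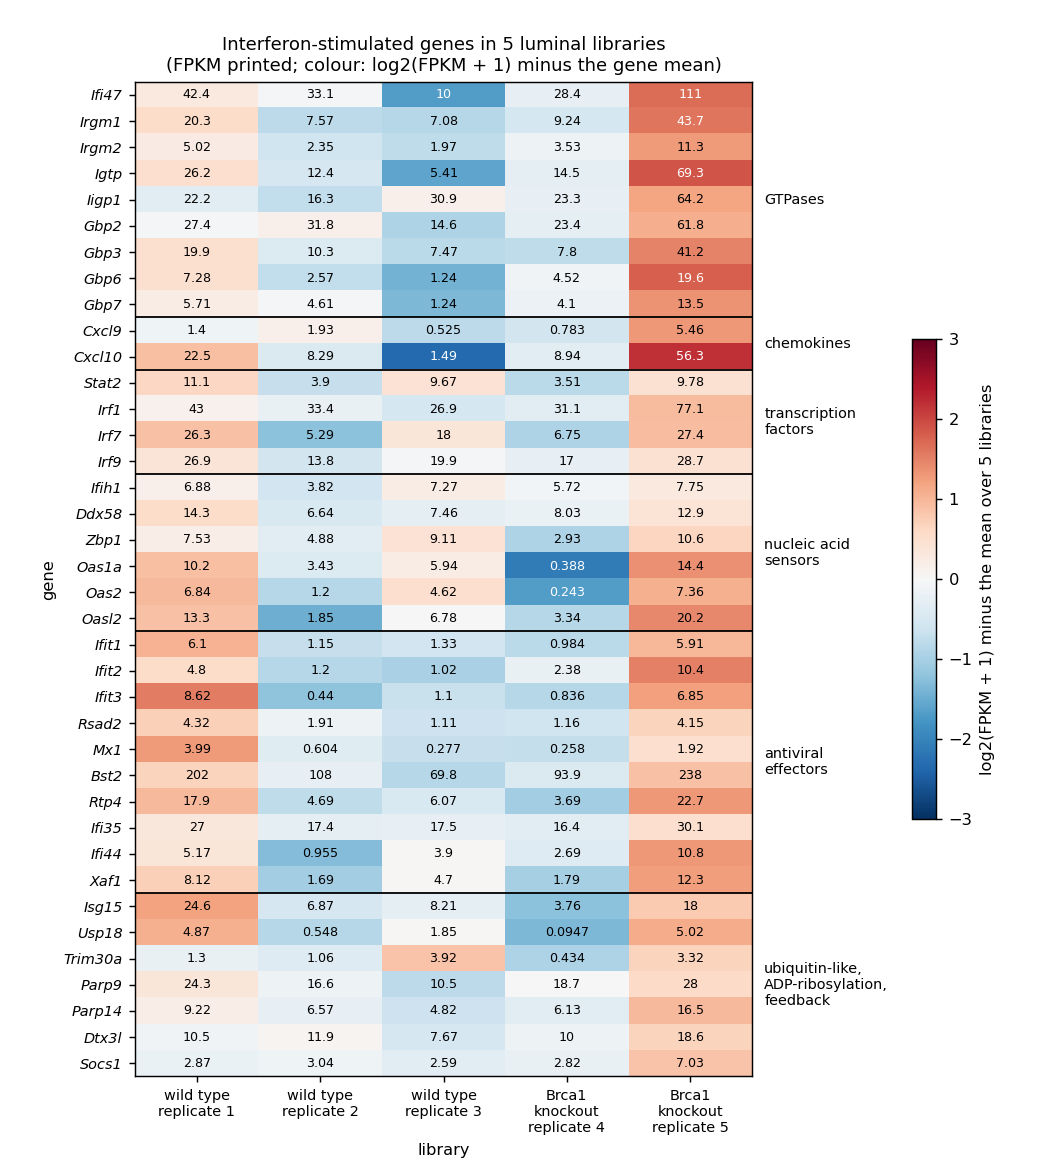
Heat map of the 38 members (rows, grouped by role) in the 5 libraries (columns); the printed numbers are FPKM and the colour is log2(FPKM + 1) minus the mean of the gene over the 5 libraries. Replicate 5 is the reddest column in 30 rows, and replicate 1 is the next strongest, while replicate 4, which shares the knockout label, is mostly blue.

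Between the labels no member could be called. In a limma fit of log2(FPKM + 1) over all 11481 genes, 0 members had a Benjamini-Hochberg adjusted p under 0.05, where 0% of all genes did, and 0 members had an unadjusted p under 0.05, where 372 genes did. Limma without a mean-variance trend also called 0 genes. The median member difference, knockout minus wild type, was 0.41, against 0.11 over all genes, and it was positive for 30 of 38 members, against 65.5% of all genes. For 0 members did both knockout libraries lie above all wild type libraries, an ordering that 17.5% of all genes had, and for 0 members did both lie below, which 5.77% of genes had. The median difference was 1.15 without replicate 4, with 38 of 38 members positive, and -0.23 without replicate 5, with 11 positive, and it changed sign only without replicate 5. Leaving out a wild type library moved it as well, to 0.73 without replicate 1, 0.15 without replicate 2, with 20 positive, and 0.29 without replicate 3. Without replicate 4 the remaining knockout library exceeded all wild type libraries for 30 members. These are the same 30 that were highest in replicate 5, because no member was highest in replicate 4, so the count is no further result. Fewer libraries make that ordering easier, and the share of all genes that had it without replicate 4 was not computed.

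The 5 largest rises were those of *Cxcl10* (log2 difference 1.55, standard error 1.16, limma adjusted p = 0.92), *Gbp6* (1.40, standard error 0.77), *Igtp* (1.31, standard error 0.85), *Ifi47* (1.18, standard error 0.81) and *Ifit2* (1.07, standard error 0.70). The 5 largest falls were those of *Oas1a* (-0.60, standard error 1.05, limma adjusted p = 0.95), *Oas2* (-0.51, standard error 0.95), *Isg15* (-0.37, standard error 0.77), *Stat2* (-0.30, standard error 0.55) and *Zbp1* (-0.24, standard error 0.51). *Ifi47* was also among the 4 most abundant members, and the other three were *Bst2* (0.37, standard error 0.59), *Irf1* (0.52, standard error 0.43) and *Gbp2* (0.68, standard error 0.52). Without replicate 5 the 5 rises shrank to 0.29 for *Cxcl10*, 0.45 for *Gbp6*, 0.22 for *Igtp*, 0.22 for *Ifi47* and 0.19 for *Ifit2*, and that of *Gbp2* to 0.0024. The 95% interval of every one of the 38 differences spanned 0, and the lowest adjusted p among them was 0.92. With 3 libraries against 2, an exact permutation test of a single value cannot give a two-sided p below 0.2.

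**Figure D2:**
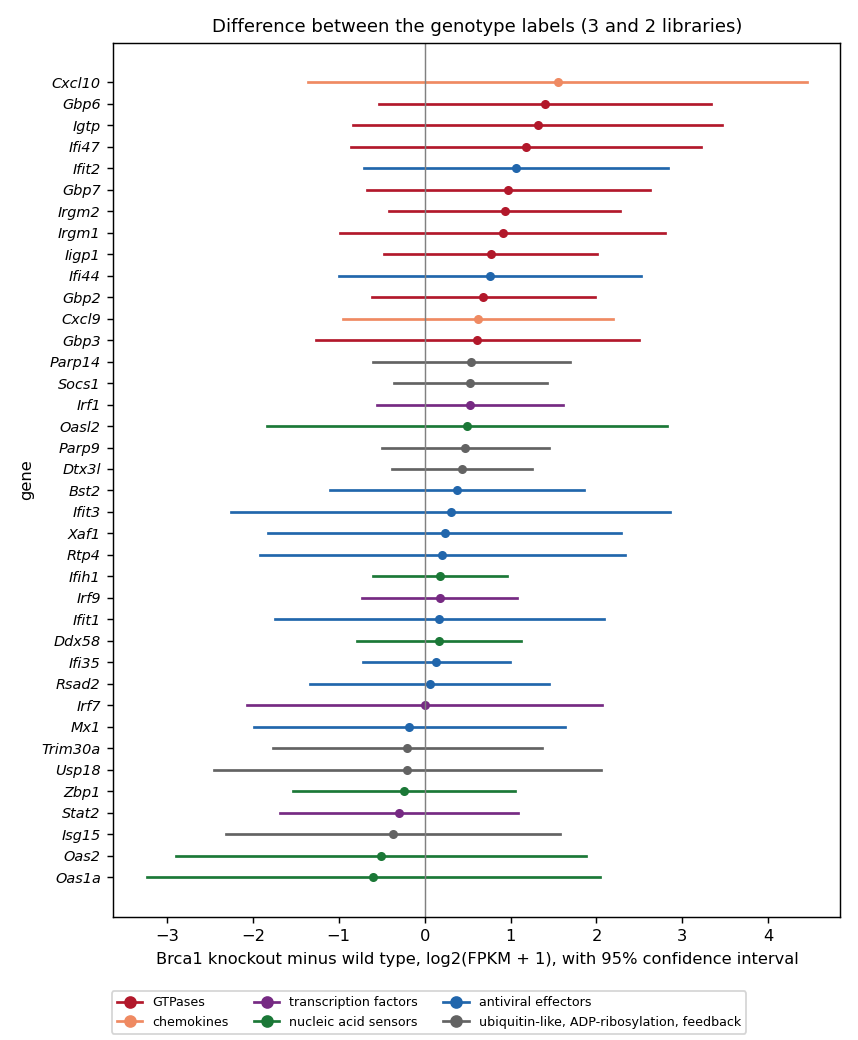
Knockout minus wild type difference in log2(FPKM + 1) for each of the 38 members (points, limma) with its 95% confidence interval (lines), coloured by role and ordered by size. The differences run from -0.60 for *Oas1a* to 1.55 for *Cxcl10*, and every interval crosses 0.

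Within each label the members differed between libraries. Replicate 5 exceeded replicate 4 by at least 1 in log2(FPKM + 1) for 32 of 38 members, where 2.25% of all genes did, and it was higher for all 38. The 32 were 12.4% of the 258 genes with such a difference, and 16.8% of the 191 left when 67 microRNA and small nucleolar RNA genes were set aside. Replicate 1 exceeded replicate 2 by at least 1 for 18 members, where 1.66% of all genes did, and replicate 3 by that much for 18, where 11.4% did. Each of these sets 1 library against 1 other, so they compare those libraries, have no replicate check and carry no test.

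Markers of other cells and of cycling moved in another order. The summed level of 14 leukocyte markers was 7.62, 276.5 and 56.3 FPKM in wild type replicates 1, 2 and 3 and 5.13 and 8.57 FPKM in knockout replicates 4 and 5. The libraries with the highest member levels, replicates 5 and 1, had low leukocyte sums. So did replicate 4, where the member median was lowest. Among replicates 5, 1 and 4 the leukocyte sum had the same order as the member median. *Lyz2*, the largest single value within the sum of replicate 5, had that order, at 4.53, 3.06 and 1.04 FPKM. The order of the sum is thus not separate from that of *Lyz2*. *Csf1r* (0.491, 0.204 and 0.0943 FPKM) and *Itgax* (0.138, 0.0392 and 0.0388 FPKM) also had it. *Cd68* (2.71, 3.49 and 3.31 FPKM) and *Cd79a* (0.194, 0.665 and 0.264 FPKM) did not. *Ptprc* (CD45, the pan-leukocyte antigen) did not either, at 0.183, 0.0603 and 0.119 FPKM in replicates 5, 1 and 4. The T cell and NK cell genes *Cd3g*, *Nkg7* and *Ncr1* were at 0 in replicates 5 and 1. The T cell gene *Cd3e* was at 0.0354 FPKM in replicate 5 and at 0 in replicate 1. Replicate 2, the richest in leukocyte RNA, had *Ptprc* at 4.93 FPKM and the second-lowest member median. Fibroblast markers summed to 2.07, 72.2 and 76.9 FPKM in replicates 1, 2 and 3 and to 2.53 and 7.40 FPKM in replicates 4 and 5. Proliferation markers were highest in replicate 5, at 102 FPKM, followed by replicate 4 at 77.4 FPKM. The part of other cells and of cycling in the member levels was not tested.

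The interferon gamma-inducible GTPases were highest in replicate 5 without exception. All 9 exceeded replicate 4 there by at least 1 (log2), with a median FPKM ratio of 3.91, and 8 of the 9 were lowest in replicate 3. *Ifi47* (IRG-47), an immunity-related GTPase, was at 42.4, 33.1 and 10.02 FPKM in wild type replicates 1, 2 and 3, with 28.4 and 111 FPKM for knockout replicates 4 and 5. *Igtp* (Irgm3), a regulatory GTPase that guards host membranes, was at 26.2, 12.4 and 5.41 FPKM in the wild type libraries and at 14.5 and 69.3 FPKM in the knockout libraries. Replicate 5 was thus 4.79 times replicate 4 for *Igtp*, and the wild type libraries lay on both sides of replicate 4. Its relative *Irgm1*, needed for resistance to intracellular bacteria, was at 20.3, 7.57 and 7.08 FPKM and at 9.24 and 43.7 FPKM, again with wild type replicate 1 in second place. *Irgm2*, which lies beside *Igtp* on chromosome 11 and overlaps it in GENCODE M21 on the same strand, so that reads could be shared between them, was at 5.02, 2.35 and 1.97 FPKM and at 3.53 and 11.3 FPKM. *Iigp1*, an effector GTPase that coats parasite vacuoles, was at 22.2, 16.3 and 30.9 FPKM and at 23.3 and 64.2 FPKM, and was the one GTPase that was lowest in replicate 2.

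The 4 guanylate-binding proteins, larger GTPases that break open pathogen vacuoles and bacteria, were likewise highest in replicate 5. *Gbp2* was at 27.4, 31.8 and 14.6 FPKM in wild type replicates 1, 2 and 3, with 23.4 and 61.8 FPKM for knockout replicates 4 and 5. *Gbp3* was at 19.9, 10.3 and 7.47 FPKM in the wild type libraries and at 7.80 and 41.2 FPKM in the knockout libraries. Only for *Gbp2*, among the GTPases, did replicate 2 exceed replicate 1. *Gbp7*, in the same cluster on chromosome 3, was at 5.71, 4.61 and 1.24 FPKM and at 4.10 and 13.5 FPKM. *Gbp6*, in the chromosome 5 cluster of closely similar copies whose reads the counting could split, had the widest range of the GTPases, at 7.28, 2.57 and 1.24 FPKM in the wild type libraries and 4.52 and 19.6 FPKM in the knockout libraries.

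Both chemokines, ligands of Cxcr3, a chemokine receptor found on T cells, were also highest in replicate 5 and lowest in replicate 3. *Cxcl10* was at 22.5, 8.29 and 1.49 FPKM in wild type replicates 1, 2 and 3, with 8.94 and 56.3 FPKM for knockout replicates 4 and 5, so its highest and lowest libraries differed 37.7-fold. *Cxcl9*, which responds mainly to interferon gamma, was lower, at 1.40, 1.93 and 0.525 FPKM in the wild type libraries and at 0.783 and 5.46 FPKM in the knockout libraries. Replicate 5 stood alone for *Cxcl9*, at 3.91 times replicate 1.

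The 4 transcription factors differed in their order. *Irf1*, a factor that interferon gamma induces directly, was at 43.0, 33.4 and 26.9 FPKM in wild type replicates 1, 2 and 3, with 31.1 and 77.1 FPKM for knockout replicates 4 and 5. *Stat2* was at 11.1, 3.90 and 9.67 FPKM and at 3.51 and 9.78 FPKM, so wild type replicates 1 and 3 and knockout replicate 5 were alike and the remaining 2 were low. *Irf7*, which amplifies type I interferon production, had the same division, at 26.3, 5.29 and 18 FPKM and at 6.75 and 27.4 FPKM. *Irf9*, the DNA-binding partner of *Stat2*, was the steadiest factor, at 26.9, 13.8 and 19.9 FPKM and at 17.0 and 28.7 FPKM.

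Among the nucleic acid sensors, the members of the 2-5 oligoadenylate synthetase family varied most, and their lowest values rest on few fragments. *Oas1a*, which makes the signal that activates RNase L and whose reads may be shared with close copies such as *Oas1g*, was at 10.2, 3.43 and 5.94 FPKM in wild type replicates 1, 2 and 3, with 0.388 and 14.4 FPKM for knockout replicates 4 and 5. *Oas2*, a larger synthetase of the same cluster, was at 6.84, 1.20 and 4.62 FPKM and at 0.243 and 7.36 FPKM. The values in replicate 4 correspond to about 4.64 estimated fragments for *Oas1a* and 6.12 for *Oas2*, and the remaining libraries were all above replicate 4 for both genes. *Oasl2*, a synthetase-like protein that boosts RNA sensing, was instead lowest in replicate 2, at 13.3, 1.85 and 6.78 FPKM in the wild type libraries and 3.34 and 20.2 FPKM in the knockout libraries.

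The RNA helicase sensors moved less. *Ifih1* (MDA5), which detects long viral RNA, was at 6.88, 3.82 and 7.27 FPKM in wild type replicates 1, 2 and 3, with 5.72 and 7.75 FPKM for knockout replicates 4 and 5. *Ddx58* (RIG-I), which detects the ends of viral RNA, was at 14.3, 6.64 and 7.46 FPKM and at 8.03 and 12.9 FPKM. Neither reached a log2 difference of 1 between replicates 5 and 4, and the range over all 5 libraries was 2.03-fold for *Ifih1* and 2.15-fold for *Ddx58*. *Zbp1*, a sensor of left-handed nucleic acid that can trigger cell death, was at 7.53, 4.88 and 9.11 FPKM and at 2.93 and 10.6 FPKM.

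The 10 antiviral effectors had no common direction between replicates 5 and 1. Of these, 6 were highest in replicate 5 and 4 in replicate 1, and the median FPKM ratio was 5.18 for replicate 5 over 4, 4.42 for replicate 1 over 2 and 1.14 for replicate 5 over 1, where it ran from 0.481 for *Mx1* to 2.16 for *Ifit2*. *Ifit1*, which binds viral RNA that lacks a host cap, was at 6.10, 1.15 and 1.33 FPKM in wild type replicates 1, 2 and 3, with 0.984 and 5.91 FPKM for knockout replicates 4 and 5. *Ifit3*, its partner, whose reads may be shared with *Ifit3b*, was at 8.62, 0.440 and 1.10 FPKM and at 0.836 and 6.85 FPKM, so replicate 1 was 19.6 times replicate 2 with the low value resting on about 9.92 estimated fragments. *Ifit2*, which promotes death of infected cells, leaned further to replicate 5, at 4.80, 1.20 and 1.02 FPKM and at 2.38 and 10.4 FPKM. *Mx1*, a dynamin-like GTPase against influenza viruses, was at 3.99, 0.604 and 0.277 FPKM in the wild type libraries and at 0.258 and 1.92 FPKM in the knockout libraries, with about 5.54 estimated fragments in replicate 4. For *Mx1* wild type replicate 1 was the highest library and both replicates 1 and 5 lay above the rest.

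*Bst2* (tetherin), which holds budding virus at the cell surface, was the most abundant member in every library, at 202, 108 and 69.8 FPKM in wild type replicates 1, 2 and 3, with 93.9 and 238 FPKM for knockout replicates 4 and 5. *Rsad2* (viperin), which makes a chain-terminating nucleotide, was at 4.32, 1.91 and 1.11 FPKM and at 1.16 and 4.15 FPKM, and replicates 1 and 5 were again alike. *Rtp4* was at 17.9, 4.69 and 6.07 FPKM in the wild type libraries and at 3.69 and 22.7 FPKM in the knockout libraries. *Xaf1*, a pro-apoptotic protein, was at 8.12, 1.69 and 4.70 FPKM and at 1.79 and 12.3 FPKM. For *Rtp4* and *Xaf1*, replicate 3 sat between the high and the low libraries, and it did so for *Ifi44* too, at 5.17, 0.955 and 3.90 FPKM and at 2.69 and 10.8 FPKM. *Ifi35* had the narrowest range of all members, 1.83-fold, at 27.0, 17.4 and 17.5 FPKM in the wild type libraries and at 16.4 and 30.1 FPKM in the knockout libraries.

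The last 7 members act through ubiquitin-like tags, ADP-ribose or feedback. *Isg15*, the ubiquitin-like modifier, was at 24.6, 6.87 and 8.21 FPKM in wild type replicates 1, 2 and 3, with 3.76 and 17.96 FPKM for knockout replicates 4 and 5, so replicate 1 was the highest library. *Usp18*, which removes *Isg15* and silences the type I receptor, was at 4.87, 0.548 and 1.85 FPKM and at 0.0947 and 5.02 FPKM. No ratio is given for *Usp18* between replicates 5 and 4 because the low value rests on about 1.06 estimated fragments. *Trim30a*, a negative regulator from a family of close copies, was the one member highest in replicate 3, at 1.30, 1.06 and 3.92 FPKM in the wild type libraries and 0.434 and 3.32 FPKM in the knockout libraries. *Socs1*, which blocks the Janus kinases and so ends interferon signalling, was at 2.87, 3.04 and 2.59 FPKM and at 2.82 and 7.03 FPKM, a high value in replicate 5 alone.

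*Parp9*, *Dtx3l* and *Parp14* lie next to each other on chromosome 16, and *Parp9* and *Dtx3l*, whose proteins form a complex, overlap there on opposite strands, so that reads may be shared if strand was not used. *Parp9* was at 24.3, 16.6 and 10.5 FPKM in wild type replicates 1, 2 and 3, with 18.7 and 28.0 FPKM for knockout replicates 4 and 5. *Dtx3l* was at 10.5, 11.9 and 7.67 FPKM and at 10.02 and 18.6 FPKM. Both were least variable among the 7, with ranges of 2.67-fold and 2.42-fold. *Parp14*, an ADP-ribosyltransferase, was at 9.22, 6.57 and 4.82 FPKM in the wild type libraries and at 6.13 and 16.5 FPKM in the knockout libraries.

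The roles differed in how replicate 5 stood to replicate 1, the libraries with the highest member medians. Replicate 5 exceeded replicate 1 by at least 1 (log2) for 12 members, where 2.26% of all genes did. These were all 9 GTPases, both chemokines and *Socs1*, which leaves 1 of the 7 ubiquitin-like, ADP-ribosylation and feedback genes, and they included 0 of 4 transcription factors, 0 of 6 sensors and 0 of 10 effectors. The median FPKM ratio of replicate 5 to replicate 1 was 2.37 for the GTPases, 3.21 for the chemokines, 1.05 for the transcription factors, 1.27 for the sensors, 1.14 for the effectors and, in between, 1.78 for the ubiquitin-like, ADP-ribosylation and feedback genes. Against replicate 2, replicate 1 was higher by at least 1 for 3 of 9 GTPases and 7 of 10 effectors, while against replicate 3 it was higher by that much for 7 of 9 GTPases and 7 of 10 effectors. This split was seen with 1 library on each side, after the values had been examined, and was not tested.

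**Figure D3:**
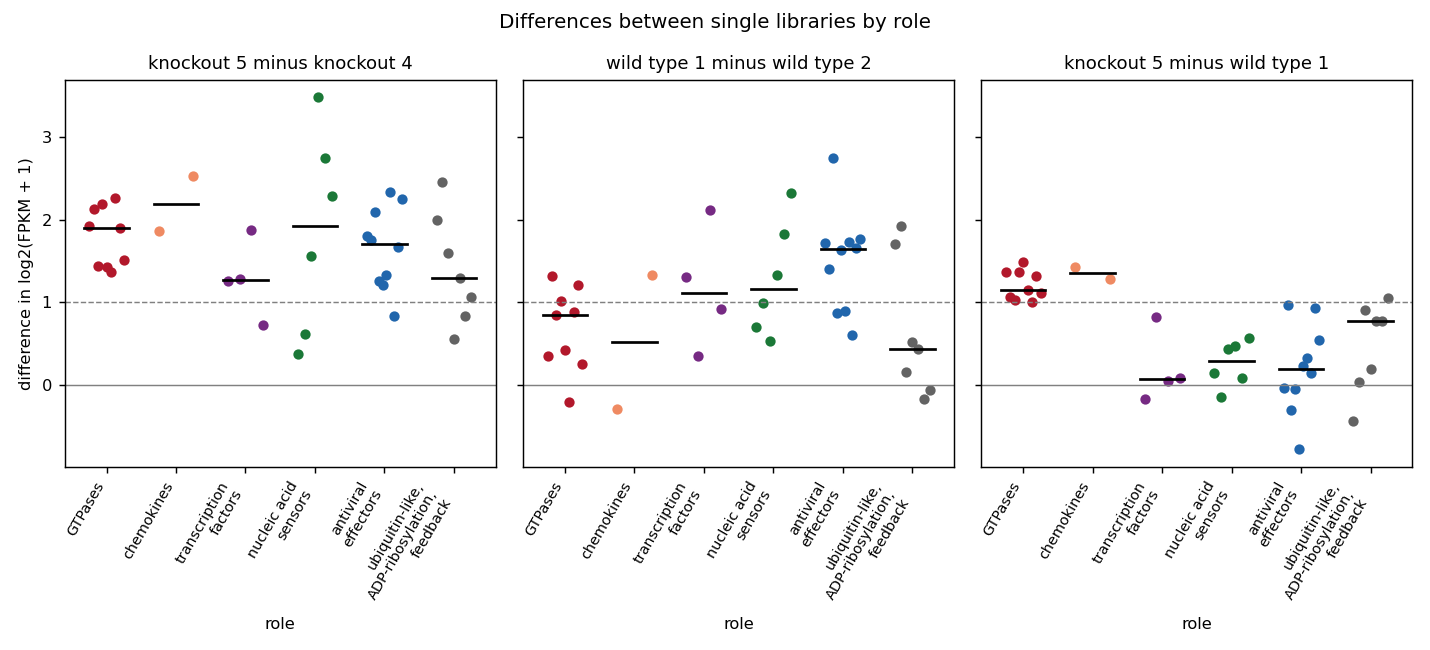
Difference in log2(FPKM + 1) between single libraries for each member (points) by role, with the median of the role as a black bar and a difference of 1 as a dashed line; the panels show knockout replicate 5 minus 4, wild type replicate 1 minus 2, and knockout replicate 5 minus wild type replicate 1. In the right panel all 9 GTPases and both chemokines lie above the dashed line, while the effector median is 0.19.

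Other genes of the pathway were described from lists of 84 genes, of which 63 passed the filter on low values. In the limma fit 0 of the 63 had an adjusted p under 0.05, and 6 had an unadjusted p under 0.05, where 372 of the 11481 genes did (*Gbp4*, *Gbp8*, *Gbp9* and *Nlrc5* with positive and *Ifi27l2a* and *Ccl5* with negative differences, each with adjusted p = 0.92). Of the 43 further induced genes, 25 were highest in replicate 5 (21.2% of all genes tested), 21 exceeded replicate 4 there by at least 1 on the log2 scale (2.25% of all genes) and 11 exceeded replicate 1 by as much (2.26% of all genes). Outside the 38, the 8 listed genes named Gbp or Tgtp were *Gbp4*, *Gbp5*, *Gbp8*, *Gbp9*, *Gbp10*, *Gbp11*, *Tgtp1* and *Tgtp2*. In replicate 5 each of these 8 exceeded both replicate 4 and replicate 1 by at least 1. They are not every GTPase of the guanylate-binding and immunity-related families. *Gbp4*, *Gbp8* and *Gbp9* overlap on the same strand of chromosome 5 in GENCODE M21, so reads could be shared between them. *Gbp8* was at 0.881, 0.843 and 0.542 FPKM in wild type replicates 1, 2 and 3, with 2.02 and 6.74 FPKM for knockout replicates 4 and 5. Both knockout libraries thus lay above all wild type libraries, an ordering that 5 of the 43 had, against 17.5% of all genes tested. For 3 of the 43 both lay below, against 5.77% of all genes tested. *Tgtp1*, nearly identical to *Tgtp2* and hence uncertain, was at 1.89, 1.32 and 1.01 FPKM in the wild type libraries and 0.874 and 13.3 FPKM in the knockout libraries. Antiviral genes outside the 38 went both ways between replicates 5 and 1, with ratios of 6.65 for *Oas3*, 1.73 for *Oas1g*, 1.02 for *Ifit3b* and 0.513 for *Mx2*. *Oas3* averaged 0.800 FPKM and did not pass the filter. Its ratio rests on 0.349 FPKM in replicate 1, about 10.2 estimated fragments. *Ifit3b* was at 3.45, 0.274 and 0.501 FPKM and at 0.337 and 3.51 FPKM, and *Mx2* was at 4.76, 0.340 and 0.771 FPKM and at 0.268 and 2.44 FPKM.

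The receptors did not follow the members, and the ligands were too low to order the libraries. Of 10 interferon genes, 9 were under 1 FPKM in every library, and *Ifng* (interferon gamma) was at or below 0.091 FPKM. *Ifne* reached 1.29 FPKM in replicate 4, where the member median was lowest, on about 5.43 estimated fragments. *Ifnb1* was at 0.4925 FPKM in replicate 2 and 0.456 FPKM in replicate 5, on about 4.78 and 7.28 estimated fragments, and at 0 elsewhere. The 6 receptor genes had medians, in log2(FPKM + 1), of 3.99, 4.21 and 3.43 in wild type replicates 1, 2 and 3 and of 3.87 and 3.97 in knockout replicates 4 and 5, and for 0 of them did replicates 5 and 4, or 1 and 2, differ by 1. *Ifngr1*, the ligand-binding chain of the interferon gamma receptor, lay between 31.1 and 60.3 FPKM, and *Ifnar1*, of the type I receptor, between 4.95 and 7.50 FPKM. *Socs3*, a feedback inhibitor of cytokine signalling, ran the other way, at 32.9, 50.7 and 74.4 FPKM in the wild type libraries and at 42.2 and 14.9 FPKM in the knockout libraries, the lowest value in replicate 5. *Ido1*, an interferon gamma-inducible enzyme of tryptophan breakdown, was at 38.4 FPKM in replicate 3 and at or below 0.0548 FPKM elsewhere.

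**Figure D4:**
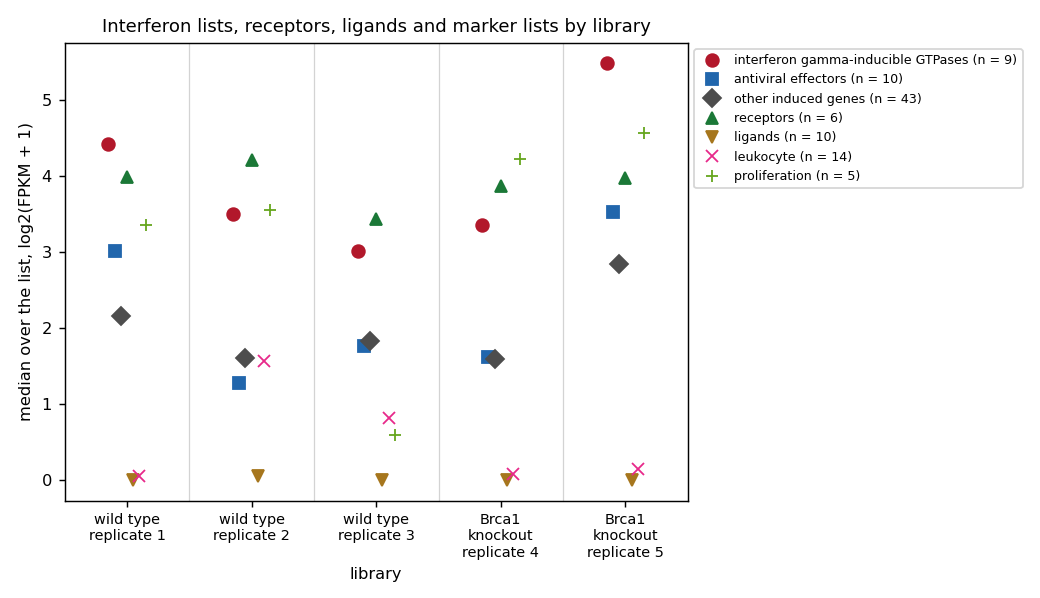
Median level in log2(FPKM + 1) of 7 gene lists (symbols) in the 5 libraries (horizontal axis). The GTPases run from 3.01 in replicate 3 to 5.48 in replicate 5, while receptors stay between 3.43 and 4.21, ligands stay near 0, and the leukocyte list is highest in replicate 2.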

How the data were processed

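The 5 bulk libraries of sorted luminal cells were grouped by the genotype in their labels. The submitters' processing notes name Trimmomatic 0.35, TopHat2 2.0.13 and Cufflinks 2.2.1 with mm10, and the gene annotation is not given in the sources used here. The deposited values are FPKM that the authors computed per gene and library, with no counts or read totals. Low FPKM lay near whole fragments (within 15% of a step) in 52.1% to 58.8% of cases, so counts were not rebuilt. Depths and estimated fragments also carry errors of the fitted step and of the transcript lengths used, which were not measured in these libraries. FPKM were analysed as log2(FPKM + 1), which understates changes of low genes. Genes that averaged 1 FPKM or more were fitted with limma 3.58.1 in R 4.3.3 (eBayes with a trend) and adjusted by the Benjamini-Hochberg method over all 11481, with a threshold of 0.05. The fit was tested on simulated data. Fold changes with errors are given for the 5 largest rises, the 5 largest falls and the 4 highest members, 13 genes in all. The members and lists were chosen with earlier results of these data known. Promoters are those of RefSeq (GRCm38.p6), and gene positions are those of GENCODE M21. Alternatives were a pseudocount of 0.1, no filter, a mean of at least 5 FPKM, median-of-ratios and quantile scaling, limma without a trend, the mean over members, and each replicate left out. Python 3.11.15 was used.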

Additional observations from a re-analysis of the deposited data

Results flagged for a closer look

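*Socs1*, the feedback inhibitor, had a sample far from the others. At 2.87, 3.04 and 2.59 FPKM in wild type replicates 1, 2 and 3 and 2.82 and 7.03 FPKM in knockout replicates 4 and 5, the gap from replicate 5 to its nearest neighbour was 0.852 of the whole range in log2(FPKM + 1), past Dixon's 95% critical value for 5 samples. The 5 libraries were taken here as 1 group, although their labels differ. It was the one such case among 45 items examined (38 members, 6 roles and the median over all members), and chance alone flags about 1 in 20.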

How the results depend on the processing

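No paired analysis was possible because the labels share no replicate numbers between wild type and knockout. In all settings run, 0 members passed the threshold, and the lowest adjusted p of a member was 0.62. Leaving out each replicate in turn, 0 to 14 genes were called (14 without replicate 4 and 4 without replicate 5, both with a lone knockout library that is assumed to vary like the wild type libraries, and 2 without replicate 1), the median member difference ran from -0.23 to 1.15, and 0 to 30 members were higher in every knockout library (30 without replicate 4, 8 without replicate 1, 1 without replicate 3), fewer libraries making that ordering easier. Among the 13 named members, the sign of 7 differences changed on leaving out a replicate, and the cause was not tested: *Oas1a* ran from -2.34 to 1.14, *Oas2* from -1.89 to 0.86, *Isg15* from -1.37 to 0.63, *Stat2* from -0.93 to 0.33 and *Zbp1* from -1.02 to 0.54, each positive without replicate 4 (*Isg15* also without replicate 1, at 0.16), while *Bst2* ran from -0.29 to 1.04 and *Irf1* from -0.12 to 1.17, both negative without replicate 5. Of 141 alternative values of these 13, 133 kept their sign and 8 reversed, all 8 on leaving out a replicate. A filter or the limma trend cannot alter the difference of a gene, so the 133 include values whose sign was fixed. Over all 38 members, the number with a positive difference went from 30 to 11 without replicate 5, 20 without replicate 2, 29 without replicate 3 and 38 without replicate 4, and was 32 of 37 tested without replicate 1. *Cxcl10*, *Gbp6*, *Igtp*, *Ifi47*, *Ifit2* and *Gbp2* stayed positive, lowest without replicate 5 and highest without replicate 4 (*Cxcl10* 0.29 to 2.81, *Gbp6* 0.45 to 2.35, *Igtp* 0.22 to 2.41, *Ifi47* 0.22 to 2.15, *Ifit2* 0.19 to 1.94, *Gbp2* 0.0024 to 1.36). Median-of-ratios scaling gave a median member difference of 0.30 (0.01 over all genes) and quantile scaling 0.37, and a mean of at least 5 FPKM left 26 members. The counts between single libraries were recomputed under alternatives chosen after seeing the data: 32 members (replicate 5 over 4) in each, 17 to 21 (1 over 2), 15 to 19 (1 over 3) and 10 to 15 (5 over 1). Depth limits the low values of replicates 1 and 4 most.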
